A study of Mus musculus with 8 samples.

Results

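The mitochondrial ribosomal proteins are the nuclear-encoded proteins of the ribosome that works inside mitochondria, and their mouse genes are named Mrpl for the large subunit and Mrps for the small subunit. They were taken as all probe sets annotated with 1 gene symbol that starts with Mrpl or Mrps followed by a digit, which gave 156 of the 45037 probe sets that are not controls. Among 18193 genes named alone by a probe set, these covered 76 genes, 47 of the large subunit with 104 probe sets and 29 of the small subunit with 52. A further 4 probe sets carried such a symbol together with that of another gene and were left out, so Mrpl30 and Mrpl53 had no probe set of their own. Of these, the 1 annotated with both Nme3 and Mrps34 was higher in Nix-null spleen (log2 difference 0.86, limma adjusted p = 0.0319), and which of the pair it reads was not tested.

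The data are log2 intensities from Affymetrix mouse expression arrays hybridised with total RNA of whole spleen, 1 animal an array without pooling. The Nix-null group (Nix-/-) held 4 mice and the wild-type group held 4 mice, all 8 weeks old and otherwise untreated. Nix, the product of Bnip3l, is an outer-membrane receptor through which maturing red cells clear their mitochondria, and the study asked what its loss does to red cell formation and cell death. Arrays are called by genotype and the number in their titles, Nix-null 2, 3, 6 and 10 and wild-type 3, 4, 5 and 6; strain, sex and the deleted part of the gene are not given in the sources used here. For Bnip3l itself, 3 probe sets shared with its pseudogene Bnip3l-ps differed by 0.43, -0.50 and 0.58 on the log2 scale with limma adjusted p-values of 0.158, 0.164 and 0.117, and so do not check the genotype.

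Mitochondrial ribosomes translate the few messages of the mitochondrial genome, which encode core subunits of the respiratory chain. Their RNAs are made inside the organelle, while all their proteins are imported from the cytosol. Some of the proteins have counterparts in bacterial ribosomes and others occur only in mitochondria. Red cell precursors need this translation while they make haem, and lose it when their mitochondria are removed.

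The genes with the largest passing rises and falls in each subunit were Mrpl50 and Mrpl47 of the large subunit, and Mrps18c and Mrps10 of the small subunit. Their upstream sequences are printed to show the genes described most fully below; whether the sequences bear on the values was not tested. Each is the 250 bases before the annotated start, 5′ to 3′ on the gene's own strand, from RefSeq on GRCm38.p6. Mrpl50 lies at chr4:49521084-49521333 (minus strand), Mrpl47 at chr3:32736756-32737005 (minus strand), Mrps18c at chr5:100798509-100798758 (plus strand) and Mrps10 at chr17:47368947-47369196 (plus strand). Capitals mark matches to the searched motifs on either strand.
Mrpl50: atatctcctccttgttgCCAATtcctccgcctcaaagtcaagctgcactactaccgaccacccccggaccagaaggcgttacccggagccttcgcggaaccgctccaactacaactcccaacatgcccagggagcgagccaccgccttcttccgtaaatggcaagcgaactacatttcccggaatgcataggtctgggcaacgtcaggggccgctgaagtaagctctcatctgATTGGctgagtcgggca
Mrpl47: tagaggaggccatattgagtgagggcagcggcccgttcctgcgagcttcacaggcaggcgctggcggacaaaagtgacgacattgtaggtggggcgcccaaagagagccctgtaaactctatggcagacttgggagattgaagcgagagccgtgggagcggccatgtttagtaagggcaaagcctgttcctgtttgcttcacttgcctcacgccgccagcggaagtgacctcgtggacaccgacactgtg
Mrps18c: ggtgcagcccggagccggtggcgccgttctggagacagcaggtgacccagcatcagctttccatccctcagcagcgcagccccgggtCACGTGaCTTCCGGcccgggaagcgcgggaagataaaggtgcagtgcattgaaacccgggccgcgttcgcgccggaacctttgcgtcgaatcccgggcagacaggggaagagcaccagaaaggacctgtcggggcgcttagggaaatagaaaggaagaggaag
Mrps10: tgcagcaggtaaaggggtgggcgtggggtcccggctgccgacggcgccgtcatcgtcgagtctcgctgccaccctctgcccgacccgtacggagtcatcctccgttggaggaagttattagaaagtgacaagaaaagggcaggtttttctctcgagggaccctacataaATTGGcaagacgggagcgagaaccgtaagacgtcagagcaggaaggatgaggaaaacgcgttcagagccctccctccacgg
In Mrpl50 the capitals are CCAAT boxes that begin 233 and 17 bases before the start, the nearer one on the other strand. In Mrps18c they are a Myc-type E-box that begins 163 bases before the start and an ETS core on the other strand that begins 156 bases before it. Mrps10 held 1 CCAAT box on the other strand, 81 bases before the start, and the Mrpl47 stretch held none of the searched letters.

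Promoter windows of 300 bases, 250 before to 50 after the start, were found for 67 of the 76 genes. The ETS core CCGGAAG, read on both strands like every motif here, was in the windows of 25 genes (37.3%), against 9.93% of all genes with a window and 12.9% of protein-coding genes. The core bound by NRF1, a regulator of nuclear genes for mitochondria, was searched as GCATGCGC and found in 8 genes (11.9%), against 3.05% of all genes and 3.94% of coding genes. The YY1 core AAGATGG was in 13 genes (19.4%), against 7.28% and 7.18%. CCAAT was found in 38.8% of member genes, against 41.1% of all genes, and the E-box CACGTG in 7.46%, against 8.09%. TATAAA was in 7.46%, against 15.7% of all genes. No member window held overlapping matches of different motifs. The gene with ETS letters among the 6 that rose and had a window was Mrps18c. A match describes letters in a window, and binding was not measured.

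Few mitochondrial ribosomal protein genes passed the test between the genotypes, and the share of probe sets that passed was close in both subunits, 8.43% of the large and 8.89% of the small, beside 30.0% of all tested probe sets. Mrpl47 rose 2.02-fold and Mrpl50 2.15-fold in mean signal, and Mrps18c, Mrpl13 and Mrpl32 were higher by smaller amounts. So were a single dim probe set of Mrpl35 and a single probe set of Mrpl28. Single dim probe sets of Mrps10, Mrps15 and Mrps23 were lower. Other tested probe sets of Mrpl50, Mrpl13, Mrpl35, Mrpl28, Mrps10, Mrps15 and Mrps23 did not pass. Testing required a log2 intensity of 5 or more on 4 or more of the 8 arrays, whatever their genotype. This kept 128 of the 156 members, 83 of the large and 45 of the small subunit, with at least 1 for each of the 76 genes, while the other 28 never exceeded 5.6 on any array. In whole spleen, fewer cells of a type and less RNA per cell cannot be told apart.

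At an adjusted p under 0.05 by limma, 11 of the 128 tested members passed (8.59%), against 30.0% of all 22347 tested probe sets. The 8 that were higher in Nix-null spleen stand beside a background of 12.5% higher, and the 3 that were lower beside a background of 17.6% lower. Without the filter, 8 of 156 members passed (5.13%), against 13.4% of all 45037 probe sets. The members' groups did not overlap for 15 of 128 probe sets, against 34.6% of all tested. Of those 15, 9 passed. The share of members that passed was therefore below the background on each of these counts. The median standard error was somewhat larger for members, 0.225, than for all tested probe sets, 0.208. With 1 probe set a gene it was 0.226 for members, against 0.198 for all genes. The part of this error in the lower share of calls was not tested. For 103 of the 128 members the 95% interval of the difference lay within 1 log2 unit of 0 on both sides, that is within a 2-fold change.

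Of the 83 large subunit probe sets, 7 rose and 0 fell by limma, with 15 at an unadjusted p under 0.05, 13 of them higher and 2 lower. Of the 45 small subunit probe sets, 1 rose and 3 fell, with 7 at an unadjusted p under 0.05, 3 higher and 4 lower. Of all tested probe sets, 30.0% passed at the adjusted threshold, so at least that share had an unadjusted p under 0.05. The median log2 difference was 0.115 for the large and -0.001 for the small subunit, beside -0.122 for all tested probe sets. The median of all tested probe sets was thus below 0. After each array was centred on its median the same medians were 0.237, 0.122 and 0.0. Without the filter they were 0.109 for the large and 0.026 for the small subunit, beside 0.093 for all probe sets. The small subunit median was then below that of all probe sets. With 1 probe set for each gene, the tested one with the highest mean over all arrays, 4 of 47 large subunit genes and 1 of 29 small subunit genes rose and 0 fell, against 13.1% higher and 21.3% lower among 11027 genes. The medians were then 0.26 and 0.05, against -0.15 for all genes. When limma was fitted to these 11027 genes alone, 6 large and 1 small subunit genes rose and 0 fell, while 38.3% of all genes passed. Moving Mrps30 and Mrps18a to the large subunit, where solved structures place their proteins, and leaving out Mrps36 gave medians of 0.108 and -0.003. With limma's array weights, which gave Nix-null 2 the least weight, the medians were -0.003 and -0.164, beside -0.120 for all tested, and 5 large subunit probe sets were higher and 3 lower, against 1 higher and 4 lower in the small subunit. The count of 0 large subunit falls therefore did not hold under those weights. No test of the difference between the subunits was made.

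**Figure D1:**
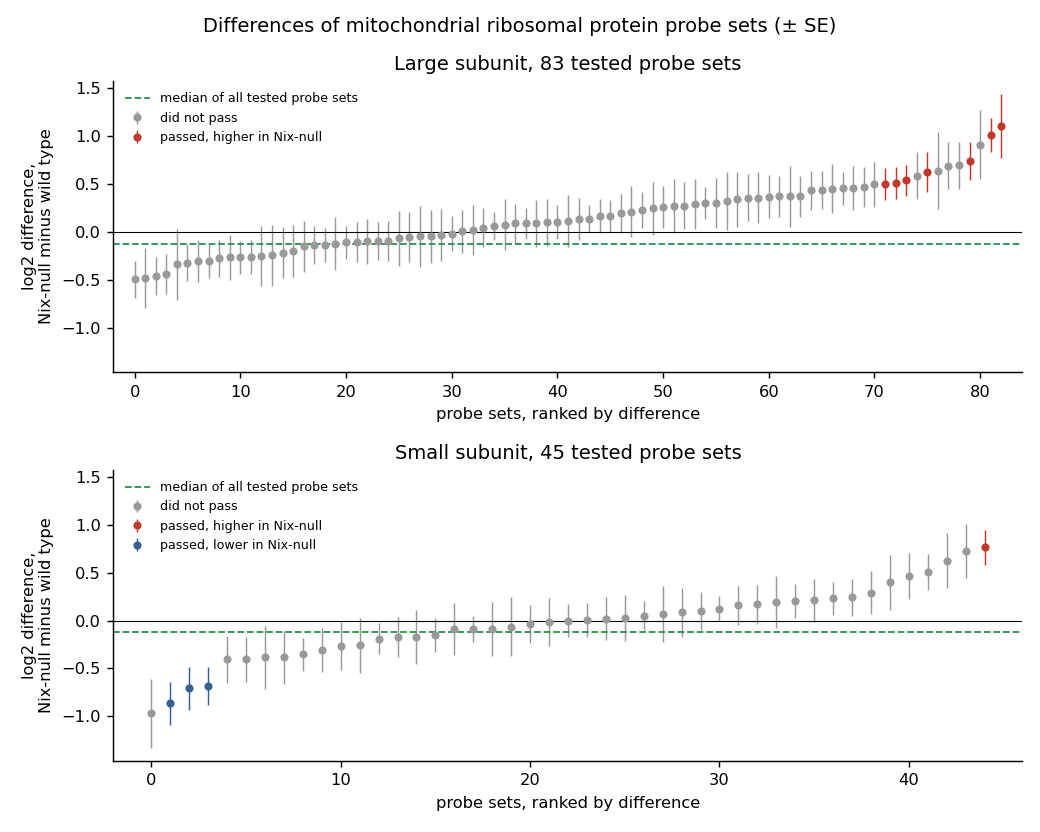
Log2 difference (Nix-null minus wild type) of every tested probe set with its standard error, ranked within the large subunit (top, 83) and the small subunit (bottom, 45). Coloured points passed limma at an adjusted p under 0.05, and the dashed line is the median of all tested probe sets, -0.12; in the large subunit 7 rose and 0 fell, in the small subunit 1 rose and 3 fell.

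Mrpl47, the counterpart of bacterial L29 near the exit of the peptide tunnel, read 8.78, 8.41, 8.52 and 8.27 in log2 intensity on Nix-null arrays 2, 3, 6 and 10, against 7.83, 7.39, 7.25 and 7.45 on wild-type arrays 3, 4, 5 and 6. Every Nix-null array was above every wild-type array. It was 2.02-fold higher (log2 difference 1.01 ± 0.18 SE, 95% interval 0.61 to 1.41, limma adjusted p = 0.00435). The call held when any 1 of the 8 arrays was left out. The other 5 genes tested from the tunnel exit list did not pass, and their differences ran down to -0.49 for Mrpl24, which was chosen here after its value was seen.

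Mrpl50, a large subunit protein found only in mitochondria, read 8.09, 6.81, 8.05 and 6.82 on Nix-null arrays 2, 3, 6 and 10, against 6.77, 6.22, 6.07 and 6.29 on wild-type arrays 3, 4, 5 and 6. Nix-null 2 and 6 were far above the rest, and Nix-null 3 and 10 were just above wild-type 3. The difference was 1.11 ± 0.33 (2.15-fold, limma adjusted p = 0.0331). It ranged from 0.89 to 1.32 when 1 array was left out, and the call was lost without Nix-null 2 or 6 or wild-type 4, 5 or 6, with adjusted p up to 0.0883. Its second probe set averaged 6.27 ± 0.24 in Nix-null and 6.0 ± 0.49 in wild-type spleen (SD, n = 4 each) and did not pass (0.27 ± 0.25, limma adjusted p = 0.425).

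Mrpl13, whose bacterial counterpart joins the large subunit early in assembly, had 4 tested probe sets. The one with the highest mean over all arrays read 11.32, 10.72, 10.97 and 10.59 on Nix-null arrays 2, 3, 6 and 10, against 10.31, 10.30, 9.84 and 10.18 on wild-type arrays 3, 4, 5 and 6. The groups did not overlap, and the difference was 0.74 ± 0.20 (1.67-fold, limma adjusted p = 0.0199). It lost its call without wild-type 5 or 6, with adjusted p up to 0.0566 and a difference no lower than 0.60. A second probe set rose by 0.50 ± 0.17 (adjusted p = 0.0453), though that call held in 1 of 8 leave-one-out fits. The other two did not pass, with differences of 0.59 ± 0.25 (adjusted p = 0.0992) and -0.24 ± 0.32 (adjusted p = 0.584).

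Mrpl32, a zinc-binding protein that the m-AAA protease matures in yeast and mouse mitochondria, read 10.44, 9.78, 10.33 and 9.68 on Nix-null arrays 2, 3, 6 and 10, against 9.39, 9.43, 9.21 and 9.69 on wild-type arrays 3, 4, 5 and 6. The groups overlapped, since wild-type 6 was just above Nix-null 10. The difference was 0.63 ± 0.21 (1.54-fold, limma adjusted p = 0.048). Mrpl35, the counterpart of bacterial L35, passed on a dim probe set that averaged 5.90 ± 0.18 in Nix-null and 5.36 ± 0.22 in wild-type spleen (difference 0.54 ± 0.17, adjusted p = 0.0352). Its other probe set averaged 9.07 ± 0.49 in Nix-null and 8.37 ± 0.23 in wild-type spleen and did not pass in this fit (0.70 ± 0.25, adjusted p = 0.0584). Mrpl28, the counterpart of bacterial L28, passed on 1 of 3 probe sets, with 9.14 ± 0.28 in Nix-null and 8.63 ± 0.12 in wild-type spleen (0.51 ± 0.17, adjusted p = 0.0475). Its other two differed by 0.44 and 0.06 and did not pass. These calls for Mrpl32, Mrpl35 and Mrpl28 each held in 2 of 8 fits that left out 1 array, with adjusted p up to 0.118, 0.109 and 0.133. Each lost its call without Nix-null 2 or 6 and without wild-type 4, 5 or 6, Mrpl32 and Mrpl28 also without wild-type 3, and Mrpl35 also without Nix-null 3. The differences then lay between 0.50 and 0.75 for Mrpl32, 0.44 and 0.62 for Mrpl35, and 0.39 and 0.59 for Mrpl28.

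**Figure D2:**
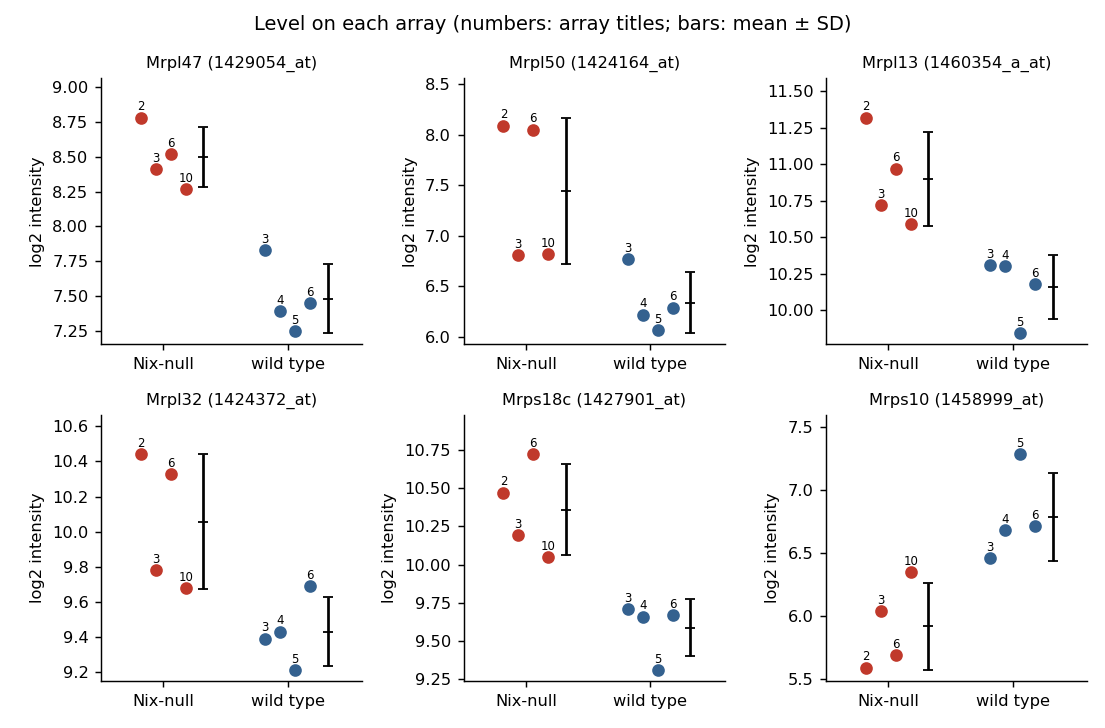
Log2 intensity on each array for 6 probe sets that passed, with Nix-null arrays left of wild-type arrays, each point numbered by its array title and the bar giving the mean ± SD (n = 4). The groups do not overlap for Mrpl47, Mrpl50, Mrpl13, Mrps18c and Mrps10, while for Mrpl32 wild-type 6 (9.69) is above Nix-null 10 (9.68); Nix-null 2 and 6 are above Nix-null 3 and 10 for Mrpl47, Mrpl50, Mrpl13, Mrpl32 and Mrps18c.

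The stalk, through which translation factors are recruited, had only 4 tested genes and 7 tested probe sets. Of these probe sets 0 passed by limma, beside 30.0% of all tested probe sets, and 0 had an unadjusted p under 0.05. Mrpl12, the stalk protein that also binds the mitochondrial RNA polymerase in human cells, averaged 10.55 ± 0.64 in Nix-null and 10.61 ± 0.12 in wild-type spleen (95% interval of the difference -0.71 to 0.57). Mrpl10, which anchors it, differed by -0.27 ± 0.24, Mrpl11 at the stalk base by 0.26 ± 0.22 and Mrpl54 by -0.05 ± 0.32. Mrpl41, a mitochondria-specific protein also described as a BCL2 partner in human cells, averaged 11.03 ± 0.40 in Nix-null and 10.66 ± 0.19 in wild-type spleen and did not pass (adjusted p = 0.207). Mrpl52 averaged 12.56 ± 0.39 in Nix-null and 12.51 ± 0.15 in wild-type spleen (adjusted p = 0.884).

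By origin, 7 of 82 tested probe sets of genes with a bacterial counterpart rose and 2 fell, with a median difference of 0.08. Of 44 probe sets of genes found only in mitochondria, 1 rose and 1 fell, with a median of 0.06. Of all tested probe sets, 12.5% rose and 17.6% fell, and no count by origin was a greater share than that background. Both medians are above the -0.12 of all tested probe sets. The difference between the lists was not tested. Mrpl55 and Mrps36 were in neither list.

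In the small subunit, Mrps18c, one of 3 vertebrate counterparts of bacterial S18, read 10.47, 10.19, 10.72 and 10.05 on Nix-null arrays 2, 3, 6 and 10, against 9.71, 9.66, 9.31 and 9.67 on wild-type arrays 3, 4, 5 and 6. Every Nix-null array was above every wild-type array, and wild-type 5 was the lowest. The rise was 0.77 ± 0.18 (1.7-fold, 95% interval 0.35 to 1.18, limma adjusted p = 0.0139), and the call held whichever 1 array was left out. Its paralogs did not pass: Mrps18a differed by -0.09 ± 0.27 (95% interval -0.70 to 0.52) and Mrps18b by -0.17 ± 0.28 (95% interval -0.79 to 0.46). The difference between the paralogs was not tested.

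Mrps12, the counterpart of the bacterial protein of the decoding centre in which streptomycin resistance arises, read 9.58, 8.87, 9.42 and 9.27 on Nix-null arrays 2, 3, 6 and 10, against 9.58, 9.62, 9.75 and 9.59 on wild-type arrays 3, 4, 5 and 6. The groups touched at Nix-null 2 and wild-type 3 and did not cross. The difference of -0.35 ± 0.17 did not pass (limma adjusted p = 0.15).

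The 3 small subunit probe sets that fell had wild-type means of 6.78 or less, and the other tested probe sets of the same genes did not pass. For Mrps10, the counterpart of bacterial S10, the probe set that fell read 5.59, 6.04, 5.69 and 6.35 on Nix-null arrays 2, 3, 6 and 10, against 6.46, 6.68, 7.28 and 6.71 on wild-type arrays 3, 4, 5 and 6. Every Nix-null array was below every wild-type array (difference -0.87 ± 0.23, 1.82-fold lower, limma adjusted p = 0.0203). The call was lost without wild-type 5 (adjusted p = 0.0515, difference -0.70). The other Mrps10 probe set averaged 8.30 ± 0.66 in Nix-null and 7.68 ± 0.08 in wild-type spleen, in the opposite direction, and did not pass (0.63 ± 0.29, adjusted p = 0.128).

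For Mrps15, the counterpart of bacterial S15, the probe set that fell averaged 4.55 ± 0.42 in Nix-null and 5.26 ± 0.24 in wild-type spleen (-0.71 ± 0.23, limma adjusted p = 0.0405), so the Nix-null mean was under the level the filter asks for. Its other two probe sets differed by -0.19 and -0.09 and did not pass. For Mrps23, a mitochondria-specific protein, the probe set that fell averaged 5.09 ± 0.34 in Nix-null and 5.78 ± 0.20 in wild-type spleen (-0.68 ± 0.20, adjusted p = 0.0278). Its other two differed by -0.31 and -0.06 and did not pass. The Mrps15 call held in 1 and the Mrps23 call in 3 of 8 leave-one-out fits, with adjusted p up to 0.106 and 0.0864 and differences from -0.88 to -0.58 and from -0.83 to -0.56. Mrps15 kept its call without Nix-null 10, and Mrps23 kept its call without Nix-null 2 or 6 or wild-type 3. Once arrays were centred on their median, neither passed. The most negative member difference, -0.97 ± 0.36 for a probe set of Mrps21, did not pass (adjusted p = 0.0675) and is named after its value was seen.

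**Figure D3:**
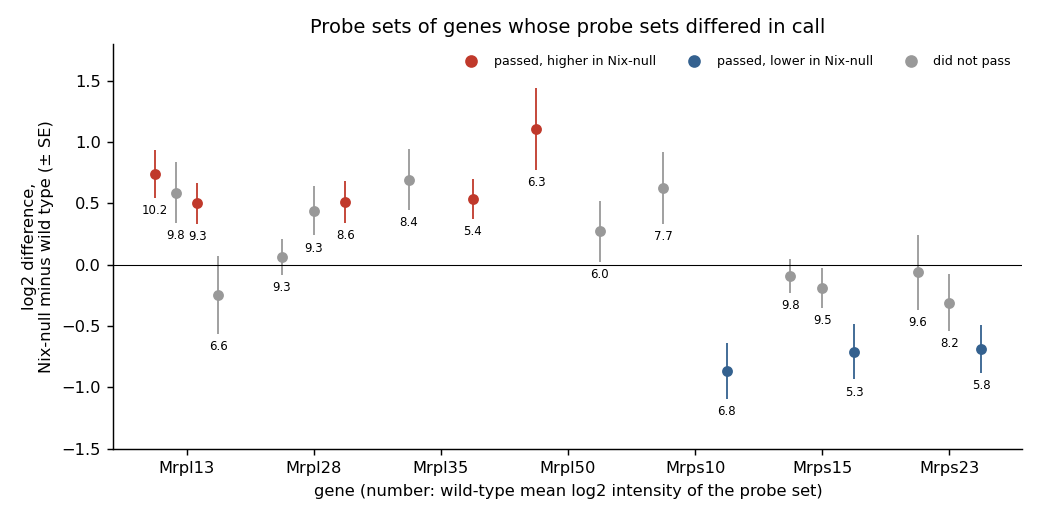
Log2 difference (Nix-null minus wild type, ± SE) of every tested probe set of the 7 genes whose probe sets differed in call, labelled with the probe set's mean log2 intensity in wild-type spleen. The probe sets that fell have wild-type means from 5.3 to 6.8, and for Mrps10 the other probe set (7.7) lies on the other side of 0.

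Mrps30, also called programmed cell death protein 9, averaged 9.40 ± 0.29 in Nix-null and 9.41 ± 0.11 in wild-type spleen (95% interval of the difference -0.39 to 0.39). Mrps36, now also described as a part of the oxoglutarate dehydrogenase complex, differed by 0.51 ± 0.19 and did not pass (limma adjusted p = 0.0728). With 1 probe set a gene, 13.1% of all genes rose and 21.3% fell. Of only 4 tested small and large subunit proteins that carry other gene names, 1 rose and 0 fell. It was Dap3, death-associated protein 3, a GTP-binding protein of the small subunit, which read 10.57, 10.08, 10.58 and 10 on Nix-null arrays 2, 3, 6 and 10, against 9.93, 9.75, 9.68 and 9.63 on wild-type arrays 3, 4, 5 and 6. The groups did not overlap (0.56 ± 0.18, 1.47-fold, adjusted p = 0.0418), and the call held in 2 of 8 leave-one-out fits, those without Nix-null 3 or 10, with adjusted p up to 0.113 and differences from 0.47 to 0.66.

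The members varied more among Nix-null arrays than among wild-type arrays. Over 4 arrays the members' median SD was 0.433 in the Nix-null group, against 0.145 in the wild-type group, while for all tested probe sets these were 0.340 (Nix-null) and 0.207 (wild type). The SD was greater in Nix-null spleen for 114 of 128 members (89.1%), against 74.3% of all tested. Nix-null 2 and 6 were both above Nix-null 3 and 10 for 106 of 128 members (82.8%), against 26.0% of all tested, and with 1 probe set a gene for 94.7% of members, against 30.7% of all genes. Nix-null 3 was the lowest Nix-null array for 77.3% of members, against 29.4% of all tested. These shares describe an order that was seen in the arrays and have no test.

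Averaged over the 83 large subunit probe sets, the deviation from each probe set's mean over 8 arrays was 0.44, -0.35, 0.31 and -0.10 on Nix-null 2, 3, 6 and 10, against -0.05, -0.04, -0.17 and -0.03 on wild-type 3, 4, 5 and 6. For the 45 small subunit probe sets it was 0.32, -0.43, 0.20 and -0.15 on the Nix-null arrays, against -0.03, 0.02, 0.03 and 0.03 on the wild-type arrays. Both subunits therefore ordered the Nix-null arrays alike, 2 above 6 above 10 above 3, and this order held after quantile normalization and after centring. The large subunit mean minus the small subunit mean was 0.12, 0.08, 0.11 and 0.04 on the Nix-null arrays, against -0.02, -0.06, -0.21 and -0.06 on the wild-type arrays. All Nix-null arrays were above all wild-type arrays in this measure, by 0.18 on average, and it has no test. With 1 probe set a gene it was 0.07, 0.04, 0.06 and 0.01 on the Nix-null arrays, against 0.02, -0.04, -0.11 and -0.04 on the wild-type arrays, and the groups overlapped.

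**Figure D4:**
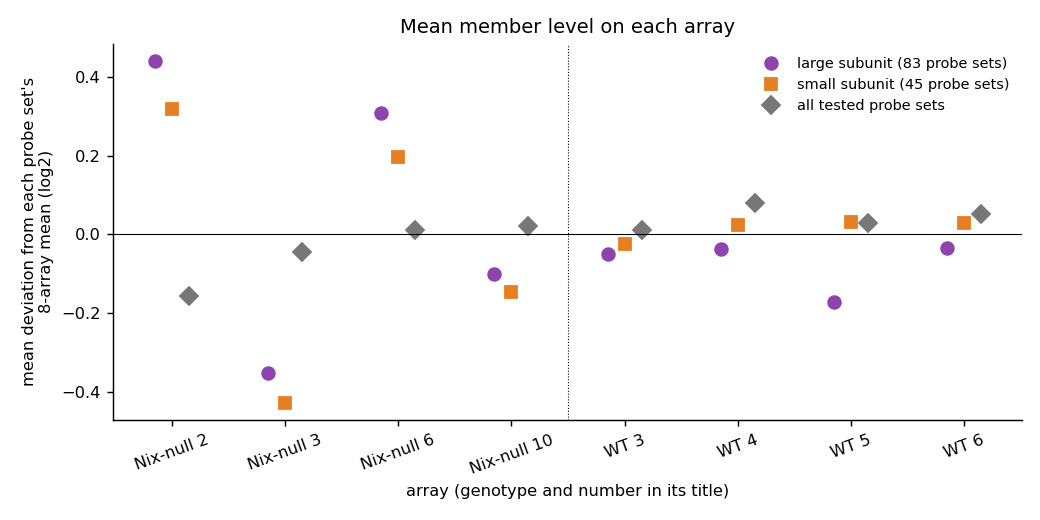
Mean deviation from each probe set's 8-array mean (log2) on each array, for the large subunit, the small subunit and all tested probe sets, with Nix-null arrays left of wild-type arrays. Nix-null 2 and 6 are high and Nix-null 3 is low for both subunits, between 0.44 and -0.43, while the wild-type arrays lie between 0.03 and -0.17.

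Marker levels varied over the same arrays. Summed intensities of 10 exocrine pancreas markers were 1933, 77597, 2065 and 1109 on Nix-null 2, 3, 6 and 10, against 43252, 2231, 11390 and 907 on wild-type 3, 4, 5 and 6, and 0 of the 10 passed by limma, 0 of them with an unadjusted p under 0.05. Nix-null 3, lowest for the members, had the highest pancreatic sum, while Nix-null 10, next lowest for the members, had the lowest Nix-null sum. Wild-type 3 had a high sum and member means near those of the other wild-type arrays. Whether the pancreatic signal bears on the member values was not tested. Without Nix-null 3, wild-type 3 and wild-type 5, a choice made with these sums known, 0 of 128 members passed, 17 had an unadjusted p under 0.05, and 3.09% of all probe sets passed, with medians of 0.23 for the large and 0.12 for the small subunit. Fewer arrays entered that fit.

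Marker RNA levels of other cell types differed between the genotypes. All 8 tested erythroid markers rose (sums of 107114 to 136363 in Nix-null, against 25333 to 59677 in wild-type spleen), with Hba-a1 under 5 on every array. All 10 markers of dividing cells (77112 to 93720, against 29413 to 50481) and all 8 neutrophil markers (42294 to 76178, against 6925 to 41554) rose. All 7 B cell markers fell (13254 to 23142, against 41024 to 50115), as did all 7 of stroma and endothelium (2020 to 4079, against 6083 to 7585). Of 8 T cell markers 5 fell, and Cd3g, Cd4 and Trat1 did not pass. The sums over all 8 T cell markers were 3615 to 7359, against 7399 to 11097. The part of these cell types in the values of the members was not tested.

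The genes that serve the mitochondrial ribosome were read from lists with 1 probe set a gene. Of 12 tested translation factors, 0 passed by limma, 3 had an unadjusted p under 0.05, and the median difference was 0.28. The share of all genes that passed at this level was 13.1% higher and 21.3% lower. Of 22 assembly genes, 2 rose and 4 fell, neither count above that background, with a median of -0.04. Tfb1m, which methylates the small-subunit RNA, rose by 0.75 ± 0.20 (8.60 ± 0.38 in Nix-null and 7.84 ± 0.16 in wild-type spleen, adjusted p = 0.0217), and Mrm1, which methylates the large-subunit RNA, rose by 0.70 ± 0.16 (adjusted p = 0.0123). Eral1, a chaperone of the small-subunit RNA, averaged 8.44 ± 0.42 in Nix-null and 9.24 ± 0.08 in wild-type spleen (-0.80 ± 0.21, adjusted p = 0.0185), and Dhx30, a helicase of mitochondrial RNA granules, averaged 9.44 ± 0.26 in Nix-null and 10.22 ± 0.20 in wild-type spleen (-0.78 ± 0.18, adjusted p = 0.0114). Mtg2 and Mettl17, named after their values were seen, fell by 0.60 and 0.52 on the log2 scale. Tfb1m lost its call without wild-type 5 or 6 (adjusted p up to 0.0642, difference 0.64 to 0.87), and Eral1 lost its call without wild-type 6 (adjusted p = 0.0561, difference -0.64 to -0.98) and with its probe sets averaged (difference -0.3, adjusted p = 0.246).

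Of 18 genes that charge mitochondrial tRNAs, 0 rose and 1 fell, beside the same background of 13.1% higher and 21.3% lower. It was Qrsl1, a subunit of the amidotransferase that makes glutaminyl-tRNA, which averaged 10.15 ± 0.15 in Nix-null and 10.89 ± 0.12 in wild-type spleen (-0.74 ± 0.14, limma adjusted p = 0.00612). Of 16 genes of mitochondrial transcription and DNA, 1 rose and 2 fell, again no more than that background. Pnpt1, the polynucleotide phosphorylase of mitochondria, rose by 0.82 ± 0.19 (adjusted p = 0.0123). Polrmt, the mitochondrial RNA polymerase, differed by -0.63 ± 0.17 (adjusted p = 0.0238) and Polg, the catalytic subunit of the mitochondrial DNA polymerase, by -0.56 ± 0.17 (adjusted p = 0.031). The Polrmt and Polg calls were lost without Nix-null 3 and without wild-type 4, 5 or 6, with adjusted p up to 0.0679 and 0.0866 and differences from -0.71 to -0.52 and from -0.62 to -0.43. Both calls were also lost once arrays were centred on their median, and that of Polg after quantile normalization.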

How the data were processed

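Per the submitters' processing notes, the deposited intensity of each probe set was made with GCRMA (version not given in the sources used here), by the authors. The values are linear, where log2 values had been planned for, so they were log2-transformed with no offset. GCRMA draws dim probe sets towards a common low level, which can compress their differences. Of 45101 probe sets, 64 controls were left out and 22347 of 45037 passed the filter. Gene symbols came from GEO's platform annotation (34945 with 1 symbol, 932 with several, 9160 with none), and promoters came from RefSeq on GRCm38.p6.

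The genotypes were compared by limma 3.58.1 (two-sided, with eBayes, Benjamini-Hochberg over all tested probe sets, threshold 0.05) in R 4.3.3. Every adjusted p is from this fit unless it is given for fits that left out arrays or for another named setting. The same fit was also run on simulated data that took each probe set's mean and SD from these arrays. Its arrays were drawn independently, so it did not hold the shared order of the Nix-null arrays. Summaries and figures were made with Python 3.11.15 and matplotlib 3.10.9. At the gene level a gene is its tested probe set with the highest mean over 8 arrays, and gene counts use the same fit. The members and gene lists were chosen with earlier results of these data known. Genes named were the largest passing rises and falls in each subunit, the stalk list, a set of members named whether or not they passed, genes whose probe sets differed in call, the probe sets with the highest and lowest mean, and up to 4 passing genes of each other list. Alternatives covered the filter, offset, normalization, array weights, intensity trend, gene level, subunit assignment, title numbers as a block, and leaving out arrays. The number of arrays, 4 a group, limits the precision.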

Additional observations from a re-analysis of the deposited data

Results flagged for a closer look

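Of 88 groups of 4 arrays examined, 4 held an array far from the other three; chance marks about 1 in 20 such groups. A probe set of Mrpl28 that did not pass read 9.62 on Nix-null 2, against 9.31 to 9.35 on the other Nix-null arrays. Mrps18c read 9.31 on wild-type 5, against 9.66 to 9.71 on the other wild-type arrays. The mean deviation of the large subunit was -0.173 on wild-type 5, against -0.049 to -0.034 on the others, and that of the small subunit was -0.026 on wild-type 3, against 0.024 to 0.032.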

How the results depend on the processing

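The count of 8 members that rose came to 12 after centring, 11 after quantile normalization (with 2 that fell) and 7 when fitted with 1 probe set a gene. It came to 0 with the 5 arrays of low pancreatic signal. When 1 array was left out it ranged from 2 to 10. It was lowest without wild-type 5 or 6 (2 each), and 3 without Nix-null 2, Nix-null 6 or wild-type 4. The count of 3 that fell came to 0 with 1 probe set a gene, 0 with those 5 arrays, 7 with array weights, and 1 each after centring, with the probe sets of a gene averaged and with the stricter filter at log2 6; it ranged from 0 to 3 when 1 array was left out, with 0 without wild-type 5 and 1 without Nix-null 3, wild-type 4 or wild-type 6. The fits with fewer arrays had fewer samples, and the other causes were not tested. Over all settings the median difference ran from -0.003 to 0.259 for the large and from -0.164 to 0.142 for the small subunit. With title numbers as a replicate block, 8 members rose and 3 fell, with medians of 0.111 and 0.002, and no call of a named gene changed. The deviations of same-numbered arrays correlated at 0.252 (number 3) and 0.147 (number 6). These values cannot decide whether the 2 shared numbers mark pairs, and the titles do not say. The block was therefore run only as an alternative. Of 42 named probe sets, 20 passed, and none of these turned its sign under any setting run; all 20 lost their call with the 5 arrays. Calls were also lost without the filter (Mrpl50, Mrpl32, Mrpl28, Mrps15, Dap3), with array weights (Mrpl32, Mrpl28, Mrps15, Dap3), after centring (Mrps15, Mrps23, Polrmt, Polg), after quantile normalization (Mrps23, Polg), with an offset of 16 (Mrps15), with limma's intensity trend (Mrpl28) and with averaged probe sets (Eral1, Mrpl28 and Mrps10 among them). The averaged fit reads a gene over all its tested probe sets. In it Mrpl28 differed by 0.337 (limma adjusted p = 0.107), while Mrpl13 (0.396, adjusted p = 0.0431) and Mrpl35 (0.616, adjusted p = 0.0184) passed. The sign turned for 11 probe sets that did not pass, none of which passed then. With the 5 arrays this gave 0.261 for Mrpl12, 0.139 for Mrpl54, 0.16 for Mrps18a, 0.064 for Mrps18b, 0.259 for Mrps23 and 0.042 for Mrps30. Centring gave 0.054 for Mrpl12, 0.075 for Mrpl54, 0.032 for Mrps15, 0.032 for Mrps18a, 0.061 for Mrps23 and 0.122 for Mrps30. Array weights gave 0.128 for Mrpl13 and -0.064 for Mrpl52, quantile normalization gave 0.013 for Mrpl54 and 0.041 for Mrps30, and the replicate block gave 0.002 for Mrps30. Averaging gave -0.013 for Mrpl52 and -0.12 for Mrps10, each a value of the gene set beside its probe set with the highest mean. For Mrps10 the average includes the probe set that fell. Over the fits that left out 1 array the difference ran from -0.351 to 0.168 for Mrpl12, -0.009 to 0.124 for Mrpl28, -0.138 to 0.142 for Mrpl52, -0.314 to 0.225 for Mrpl54, -0.309 to 0.113 for Mrps18a, -0.382 to 0.09 for Mrps18b, -0.251 to 0.259 for Mrps23 and -0.089 to 0.099 for Mrps30. Probe sets of Mrpl35, Mrps10, Mrps12 and Mrps36 that did not pass did so under 11 combinations of probe set and setting.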
